A study of Mus musculus with 10 samples.

Results

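The replication-dependent histone genes were examined in CD90- and CD90+ myofibroblastic cancer-associated fibroblasts (myCAFs) of mouse pancreatic ductal adenocarcinoma (PDAC). Members were the protein-coding genes whose symbol begins with Hist1h, Hist2h, Hist3h or Hist4h and whose estimated counts summed to at least 20 over the 10 libraries, so they were selected on their summed read number and not on a difference. There were 64 members among 48471 genes, out of 67 protein-coding genes with such a symbol. Just inside the threshold lay Hist3h2ba with 20.1 and Hist1h2bq with 49.5 summed reads, and just outside it lay Hist1h2aa with 12.4 and Hist1h2ba with 8.19. The members comprised 6 genes for the linker histone H1, 17 for H2A, 17 for H2B, 11 for H3 and 13 for H4. By their symbols 52 belong to the Hist1 cluster on chromosome 13, 9 to Hist2 on chromosome 3, 2 to Hist3 on chromosome 11 and 1 to Hist4 on chromosome 6.

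Tumours were grown in C57BL/6J hosts by placing KPC T-LOH organoids, cultured tumour cells of a pancreatic cancer mouse model, into the pancreas. The CAFs of each tumour pool were sorted by flow cytometry into a CD90- and a CD90+ fraction, which gave 5 pools with 1 library of each fraction. Pools are numbered 1 to 5 here, and the same animal numbers in the titles pair the fractions. The titles name 11 animals, whereas the design text counts 5 male mice. All groups share the host strain, the tumour model and the absence of any treatment named in the labels. The sources used here give neither the age of the hosts nor any sorting marker for myCAFs besides CD90. Comparisons are CD90- over CD90+, and their p-values measure the spread of the difference between fractions over these 5 pools.

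Replication-dependent histone genes supply the proteins that package newly made DNA, so their mRNAs accumulate in S phase and are degraded when DNA synthesis ends. H2A, H2B, H3 and H4 form the nucleosome core, and H1 binds the DNA where it enters and leaves the nucleosome. Most of these mRNAs end in a conserved stem-loop in place of a poly(A) tail. The stem-loop-binding protein Slbp and the U7 particle recognise the end of the transcript for processing. Some members, such as Hist1h1c, can also be made as polyadenylated mRNA in cells that have stopped dividing. Library preparation from total RNA used a stranded SMART-Seq kit, which primes with random oligonucleotides, so mRNA without a tail can be captured.

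The stem-loop is shown for 6 members on which the results turn, because it is the feature that sets these mRNAs apart and because it differs between H4 and the other classes. The letters are DNA, 5′ to 3′, from the GENCODE M21 transcripts, and capitals mark the match to the searched motif on the transcript strand, which is a stem strand GGNNCT, a loop TNTN and the other stem strand AGNNCC without a gap.
Hist1h1c: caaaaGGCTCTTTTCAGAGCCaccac
Hist1h1e: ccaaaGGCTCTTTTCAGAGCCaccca
Hist2h2aa1: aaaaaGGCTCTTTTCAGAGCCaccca
Hist1h2bb: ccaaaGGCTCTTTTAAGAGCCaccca
Hist2h3c2: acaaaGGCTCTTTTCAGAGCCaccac
Hist1h4d: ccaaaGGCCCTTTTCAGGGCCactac

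The motif was found in a transcript of 45 of the 64 members (70.3%), against 0.356% of 58797 protein-coding transcripts in the annotation. The first share counts genes and the second counts transcripts, those of the histone genes included. In each H1, H2A, H2B and H3 member with a match the stem opened with GGCTC. The 12 H4 members with a match had GGCCC in 10 genes and GGTCC in 2. The most frequent form, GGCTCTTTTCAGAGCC, was held by 3 H1, 10 H2A, 8 H2B and 4 H3 genes, and the most frequent H4 form, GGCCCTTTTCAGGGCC, by 7 genes. The motif lay within 60 bases of the annotated transcript end in 22 members and over 1000 bases before it in 8. A member with no match has only been shown to lack these letters in its annotated transcripts.

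Promoters are shown for the member closest to a difference between the fractions, Hist1h1e, for the H2B gene with the smallest p-value, Hist1h2bb, and for Hist1h4d, the member with the smallest p-value among pools. Each runs from 250 bases before to 50 bases after the RefSeq start on GRCm38.p6, printed on the strand of the gene. Capitals mark 4 searched motifs on either strand: CCAAT, bound by NF-Y, TATAAA, bound by the TATA-binding protein, ATTTGCAT, the octamer bound by Oct1, and AAACACA, an element described in H1 promoters.
Hist1h1e (chr13:23622509-23622808, minus strand): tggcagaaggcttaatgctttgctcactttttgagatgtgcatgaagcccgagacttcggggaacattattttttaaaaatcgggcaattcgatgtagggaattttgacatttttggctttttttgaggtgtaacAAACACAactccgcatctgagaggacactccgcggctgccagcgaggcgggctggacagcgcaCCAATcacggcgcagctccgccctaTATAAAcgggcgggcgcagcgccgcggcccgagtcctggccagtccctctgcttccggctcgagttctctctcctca
Hist1h2bb (chr13:23746484-23746783, plus strand): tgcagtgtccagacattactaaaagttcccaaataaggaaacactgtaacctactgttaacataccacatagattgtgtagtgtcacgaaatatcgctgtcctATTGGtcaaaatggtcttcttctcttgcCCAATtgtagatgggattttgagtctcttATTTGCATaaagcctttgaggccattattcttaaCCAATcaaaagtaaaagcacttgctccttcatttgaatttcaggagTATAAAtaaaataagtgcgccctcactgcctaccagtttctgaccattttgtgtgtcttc
Hist1h4d (chr13:23581318-23581617, plus strand): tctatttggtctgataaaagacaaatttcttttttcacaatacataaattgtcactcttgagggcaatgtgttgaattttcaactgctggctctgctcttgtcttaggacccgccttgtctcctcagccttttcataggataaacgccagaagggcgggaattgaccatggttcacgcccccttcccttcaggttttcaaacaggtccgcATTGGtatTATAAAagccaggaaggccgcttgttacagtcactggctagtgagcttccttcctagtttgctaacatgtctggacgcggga

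A RefSeq promoter was matched for 59 members. CCAAT occurred in the promoters of all 6 H1, 17 H2A, 15 H2B and 9 H3 genes matched but in 3 of 12 H4 genes, against 37.4% of 32851 RefSeq promoters of the same length. TATAAA occurred in 33 of the 59 (55.9%), against 13.6% of all promoters. The octamer was held by 6 of 17 H2A and 6 of 15 H2B promoters and by no H1, H3 or H4 promoter, against 1.74% of all. The windows of Hist1h2ae and Hist1h2bg overlap and hold the same octamer, as do those of Hist1h2ah and Hist1h2bk. Such counts are therefore of genes and not of separate sites. AAACACA was held by 5 of 6 H1 promoters, 1 H2A promoter and 1 H2B promoter, against 7.18% of all. These matches describe letters in the window and not occupied sites.

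Estimated counts totalled 11.7 to 47.7 M per library, and nuclear protein-coding genes held 3.71 to 28.5 M of them. The histone members drew 4219 to 42328 reads in CD90- libraries and 3340 to 40721 in CD90+ libraries. The CD90+ library of pool 5 had both the fewest total counts, 11.7 M, and the fewest histone reads, 3340. Mitochondrial rRNA took 35.6% to 84.4% of CD90- and 10.5% to 44.8% of CD90+ libraries. Within each fraction pool 3 had the most nuclear protein-coding counts and the lowest mitochondrial rRNA share. Thy1, which encodes CD90, was at 8.47 ± 5.17 CPM (counts per M library counts, scaled by the TMM method; SD, n = 5) in CD90- and 89.1 ± 29.5 in CD90+ libraries (log2 fold -3.50, SE 0.50, edgeR adjusted p = 0.00561, lower in 5 of 5 pools). Of 8 fibroblast markers 7 were lower in CD90- libraries (summed CPM 4052 to 20452 against 32394 to 53857) and of 11 cancer epithelium markers 8 were higher (810.1 to 3107 against 234 to 1699.9). The CD90- fraction thus held less fibroblast marker RNA than the CD90+ fraction, and no fibroblast marker was at 0 in either. The part of this difference in the histone values was not tested, and in bulk RNA fewer cells of a type and less RNA per cell cannot be told apart.

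No replication-dependent histone gene passed the test between the CD90- and CD90+ fractions. Of the 57 members with enough counts to be tested, 0 had an edgeR quasi-likelihood adjusted p under 0.05, where 12.9% of all 15378 genes tested did (5.83% higher and 7.05% lower in CD90-). At an unadjusted p under 0.05 there were 2 members, Hist1h1e and Hist1h2ab, against 26.9% of all genes. The 5 libraries of each fraction overlapped for all 57 members, whereas 7.93% of all genes showed no overlap. The median log2 fold of the members was 0.20, with 36 positive and 21 negative values, beside a median of 0.04 over all genes. By class the median was -0.19 for H1, 0.06 for H2A, 0.33 for H2B, 0.45 for H3 and 0.26 for H4. DESeq2 called 1 member, Hist1h1e, where it called 22.4% of all genes, and limma-voom called 0 members where it called 14.8% of all genes. At an unadjusted p under 0.05 limma-voom had 4 members, against 28.3% of all genes.

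A missing call does not show equal levels, because most histone genes were measured with wide intervals. The median standard error of the log2 fold was 0.62 over the members and 0.38 over all genes. In 9 of the 57 members the 95% interval of the fold excluded a 2-fold difference in either direction, as it did for 32.4% of all genes. Those 9 were Hist1h1a, Hist1h1c, Hist1h1d, Hist1h2ac, Hist1h2af, Hist1h2ai, Hist2h2ac, Hist1h2bc and Hist1h4d. For the other 48 tested members a 2-fold difference lies within the interval.

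**Figure D1:**
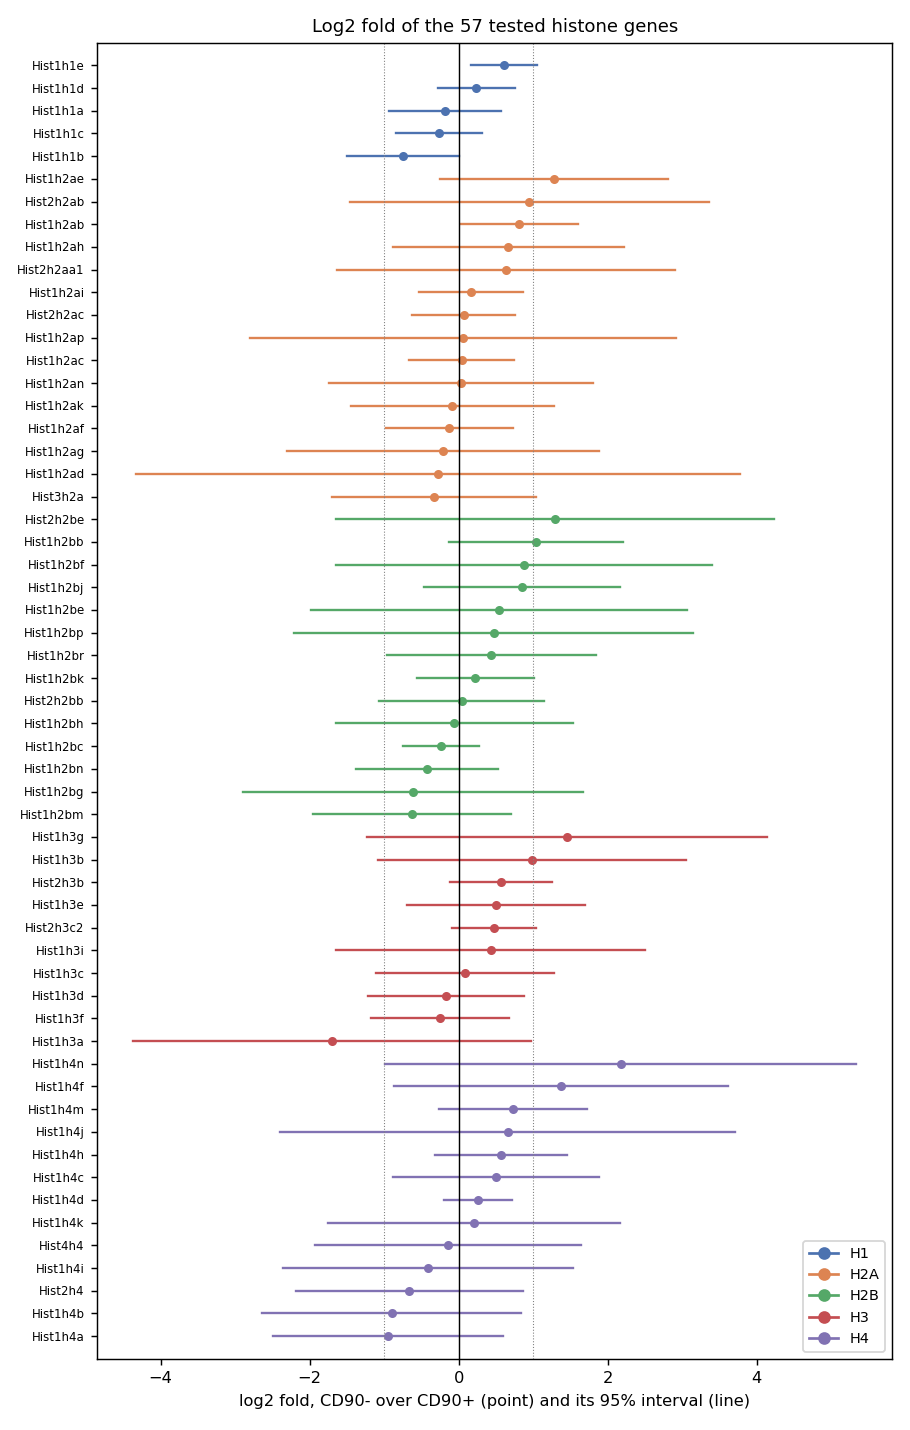
Log2 fold of each of the 57 tested histone genes, CD90- over CD90+ (x axis, points; lines are 95% intervals of the edgeR fit with pools as a block, n = 5 pools), ordered by class and fold; dotted lines mark a 2-fold difference. Folds run from -1.70 to 2.17, H1 genes have the shortest lines as a class, and Hist1h1e and Hist1h2ab are the genes whose interval lies above 0.

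Summed over the 64 members, the level was 395, 291, 838, 451 and 291 CPM in the CD90- libraries of pools 1 to 5. In the CD90+ libraries it was 378, 303, 614, 438 and 328 CPM. The fractions overlapped, the sum was higher in CD90- in 3 of 5 pools, and both fractions had their highest value in pool 3. The means were 453 ± 226 and 412 ± 124 CPM (SD, n = 5), and the mean log2 difference over pools was 0.06 with an SD of 0.23. Without pool 3 it was -0.03. The number of pools with the higher sum in CD90- depended on the scale, at 5 of 5 over nuclear protein-coding counts and 1 of 5 (pool 3) with no TMM factor. No p-value is given for the sum, since the members were chosen with results known.

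Pool 3 stood above the other pools in every histone class of both fractions. In pool 3 the summed level was 2.35 times the mean of the other pools in CD90- and 1.70 times in CD90+. Those ratios were 2.28 and 1.79 over nuclear protein-coding counts and 5.15 and 2.54 with no TMM factor. The H2A genes summed to 277 CPM in the CD90- library of pool 3 and to 82.6 to 119 in the other CD90- libraries. In CD90+ the H2A sum was 179 CPM in pool 3 and 69.4 to 126 elsewhere. The H3 genes summed to 139.9 CPM in pool 3 of CD90- beside 29.9 to 58.1 elsewhere, and to 100.4 CPM in pool 3 of CD90+ beside 26.8 to 58.8. The H4 sum in pool 3 was 90.6 and 68.4 CPM, with 22.5 to 57.7 in all other libraries. For H2B the pool 3 values were 136 and 102 CPM and the others 39.1 to 78.0. The H1 sum varied least, from 89.0 CPM in pool 2 of CD90- to 195 in pool 3 of CD90-, and averaged 131 ± 42.6 and 131 ± 21.9 CPM in CD90- and CD90+.

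**Figure D2:**
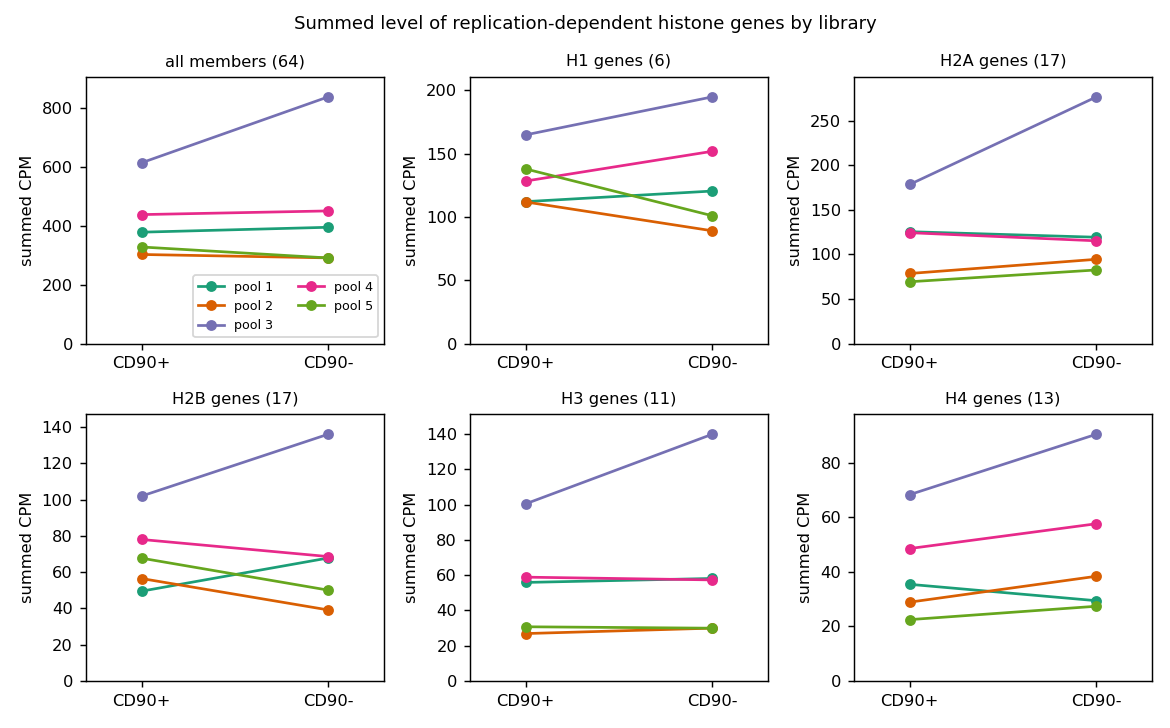
Summed CPM (y axis, from 0) of all 64 members and of the 5 histone classes in CD90+ and CD90- libraries; each line joins the 2 libraries of a pool. The line of pool 3 lies above the other pools in every panel, with 614 and 838 CPM for all members, while the direction between fractions differs from pool to pool.

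The order of pools also showed in single genes. Pool 3 was the highest of its fraction in both fractions for 30 of the 57 tested members, against 12.9% of all genes tested. These were 4 of 5 H1, 8 of 15 H2A, 7 of 14 H2B, 7 of 10 H3 and 4 of 13 H4 genes. A test for any difference among the 5 pools, chosen after this pattern was seen, had an unadjusted p under 0.05 for 18 members (31.6%) and for 12.8% of all genes. After adjustment 0 members and 0.013% of all genes passed. Without pool 3 the shares at an unadjusted p under 0.05 were 14.5% of 55 members and 6.62% of all genes. The smallest p-values among members belonged to Hist1h4d (edgeR adjusted p = 0.0844), Hist2h3c2 (0.122), Hist1h2bk (0.129) and Hist1h1a (0.136). Pool 3 also had the lowest mitochondrial rRNA share and the highest nuclear count in each fraction, and its cell type markers stood apart as well. Summed cancer epithelium markers were lowest in pool 3 of both fractions, at 810.1 CPM in CD90- (1458 to 3107 in the other pools) and 234 CPM in CD90+ (433 to 1699.9). Summed fibroblast markers were highest in pool 3 within CD90-, at 20452 CPM, and lowest in pool 3 within CD90+, at 32394 CPM. Their log2 difference was -0.66 in pool 3 and -3.36 to -2.002 in the others. The part of these differences in the higher histone level of pool 3 was not tested.

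Linker histone genes were the best resolved class. Hist1h1c (ENSMUSG00000036181) took on average 13.2% of the histone reads of a library, the largest share of any member. It measured 44.2, 30.4, 63.7, 59.8 and 39.2 CPM in CD90- pools 1 to 5. In CD90+ it measured 45.7, 60.4, 47.2, 46.1 and 86.2 CPM. Its highest value was therefore the CD90+ library of pool 5, not pool 3, and the fractions overlapped (log2 fold -0.27, SE 0.26, edgeR adjusted p = 0.569).

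Hist1h1e (ENSMUSG00000051627), which encodes another somatic H1, was the member nearest to a call. Its CD90- values were 39.6, 33.8, 53.2, 48.1 and 38.5 CPM. The CD90+ values were 32.1, 23.1, 42.2, 35.2 and 13.8 CPM. Each pool had the higher value in CD90-, while the ranges of the fractions overlapped between 33.8 and 42.2 CPM. Means of 42.6 ± 7.85 and 29.3 ± 11.1 CPM (SD, n = 5) gave the log2 fold 0.61, with an SE of 0.20 and an edgeR adjusted p of 0.0724. It was called by DESeq2 (adjusted p = 0.0373), by edgeR with no filter on low counts (0.0412, with 10.5% of all genes called) and by edgeR over genes whose mean log2 CPM was 3 or more (0.0452, with 26.4% called). Its adjusted p ranged from 0.0373 to 0.751 over the alternatives run, highest with mitochondrial rRNA as a covariate, and leaving out pool 5 lowered the log2 fold to 0.38 (adjusted p = 0.164). Hist1h1e overlaps Hist1h2be and Gm11398 on the same strand in the annotation, and 65.3% of its 31-letter words occur in no other gene, so part of its count rests on how reads were divided.

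The other somatic H1 genes went in different directions. Hist1h1d was at 21.7, 18.0, 32.2, 26.1 and 15.7 CPM in CD90- and at 14.1, 10.1, 28.7, 23.1 and 24.3 in CD90+ (log2 fold 0.24, SE 0.23, edgeR adjusted p = 0.578). Hist1h1b was at 8.92, 3.45, 26.1, 11.5 and 4.25 CPM in CD90- and at 10.1, 13.6, 26.0, 13.2 and 12.2 in CD90+ (log2 fold -0.75, SE 0.34, edgeR adjusted p = 0.187). Hist1h1b was lower in CD90- in pools 1, 2, 4 and 5 and level in pool 3. Its log2 difference was -1.96 and -1.51 in pools 2 and 5 and only -0.17 and -0.19 in pools 1 and 4. Hist1h1a was at 5.71, 3.35, 18.7, 6.30 and 3.18 CPM in CD90- and at 9.83, 4.14, 20.1, 10.4 and 1.38 in CD90+ (log2 fold -0.19, SE 0.34, edgeR adjusted p = 0.780). Hist1h1a and Hist1h1b shared a marked pool 3 peak in both fractions, which Hist1h1c did not show. Hist1h1t, the testis H1, had at most 0.772 CPM in any library and was not tested.

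Among the core histone genes, Hist1h2bc (ENSMUSG00000018102, H2B) had its highest value in the same library as Hist1h1c. It was at 22.8, 21.2, 34.8, 24.5 and 23.4 CPM in CD90- and at 19.7, 35.1, 25.9, 27.1 and 45.3 CPM in CD90+. As for Hist1h1c, that was the CD90+ library of pool 5, the one with the fewest histone reads. The interval excluded a 2-fold difference (log2 fold -0.24, SE 0.23, 95% interval -0.75 to 0.27, edgeR adjusted p = 0.573). Highest over lowest library was 2.30 for Hist1h2bc, 2.84 for Hist1h1c and 8.13 for Hist1h4d. A sum without these 2 genes was an alternative chosen after seeing the data. The remaining 62 genes had CD90- over CD90+ ratios of 1.05, 1.16, 1.37, 1.004 and 1.16 in pools 1 to 5. These were above 1 in 5 of 5 pools, but pool 4 was nearly level (366 against 365 CPM). The mean log2 difference was 0.19, with an SD of 0.17. Both removed genes have a negative fold, so their removal raises the difference, and with no TMM factor the same 62 genes were higher in 1 of 5 pools (mean log2 difference -0.78).

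Hist1h4d (H4) and Hist2h3c2 (H3) followed the pools. Hist1h4d was at 13.2, 19.4, 42.3, 18.8 and 6.54 CPM in CD90- and at 14.5, 13.2, 27.6, 19.6 and 5.21 CPM in CD90+. In both fractions pool 3 was highest and pool 5 lowest. With the pool as a block, Hist1h4d was not called between the fractions (log2 fold 0.26, SE 0.20, edgeR adjusted p = 0.472). Hist2h3c2 was at 11.4, 9.22, 35.3, 17.4 and 7.72 CPM in CD90- and at 13.0, 4.21, 20.7, 16.9 and 5.01 CPM in CD90+ (log2 fold 0.48, SE 0.25, edgeR adjusted p = 0.267). Its neighbour in sequence Hist2h3b, another H3 gene, ranged from 5.06 to 19.6 CPM in CD90- and from 1.57 to 15.3 in CD90+, again with its maximum in pool 3 of each fraction (log2 fold 0.57, SE 0.31, edgeR adjusted p = 0.280).

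Some H2A and H2B genes had higher means in CD90- without passing the test. Hist1h2ab (H2A) was at 11.7, 9.66, 28.9, 12.4 and 4.95 CPM in CD90- and at 8.66, 6.66, 12.8, 13.9 and 0.884 CPM in CD90+. It was higher in 4 of 5 pools, and the fractions overlapped (log2 fold 0.81, SE 0.35, edgeR adjusted p = 0.174). Hist1h2bb (H2B) was at 8.92, 6.10, 9.76, 8.54 and 4.80 CPM in CD90- and at 2.75, 0.793, 7.66, 3.99 and 8.55 CPM in CD90+ (log2 fold 1.04, SE 0.52, edgeR adjusted p = 0.245). Only 3 members were higher in CD90- in all 5 pools, namely Hist1h1e, Hist1h4m (H4, log2 fold 0.73, SE 0.44, edgeR adjusted p = 0.346) and Hist1h2ae (H2A, 1.28, SE 0.69, 0.273). No member was lower in all 5. The share of all genes with either pattern is not given here, so these counts stand without a background. Of the words of Hist1h4m, 8.33% occur in no other gene and 91.7% are shared with Hist1h4n. The sum of Hist1h4m and Hist1h4n was also higher in CD90- in each pool. In pool 5 Hist1h2ae was at 0.628 CPM in CD90- and at 0 in CD90+. Hist1h2bj (H2B) ran from 1.18 to 11.7 CPM in CD90- and from 0 to 7.24 in CD90+. Hist1h4n (H4) had the largest fold, 2.17, with an SE of 1.37, and was listed at 0 in both libraries of pools 1 and 2. Hist1h2ai and Hist1h2ak, both H2A genes, had folds near 0 (0.16 and -0.09) with edgeR adjusted p of 0.802 and 0.949.

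**Figure D3:**
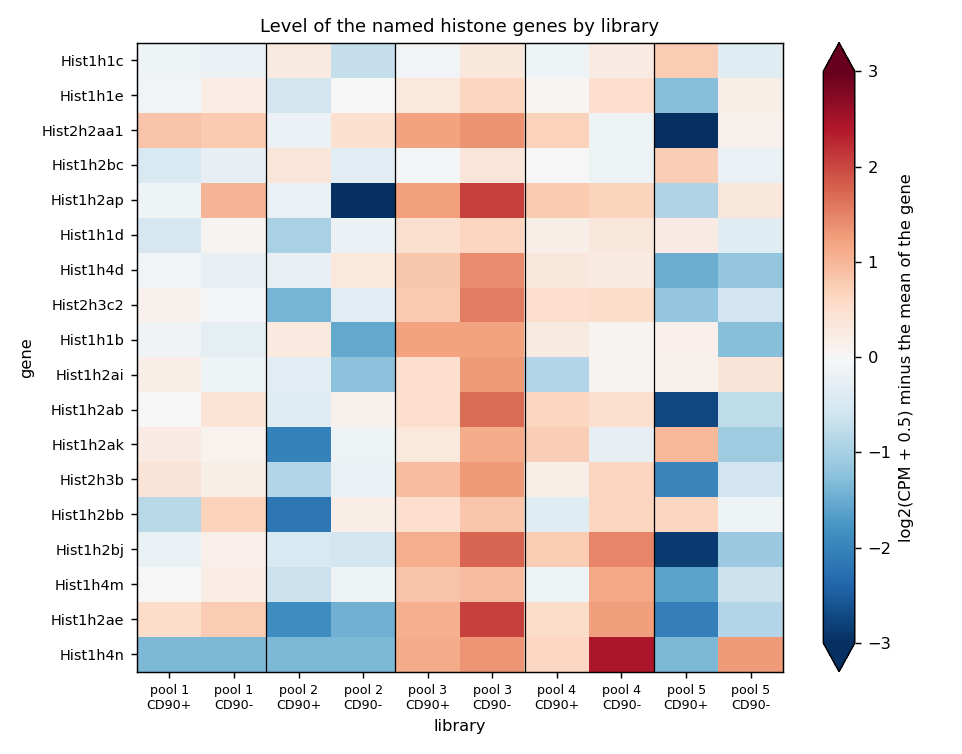
Level of the 18 named histone genes (rows, by summed reads) in each library (columns, CD90+ and CD90- of each pool side by side), as log2(CPM + 0.5) minus the mean of the gene; colours beyond 3 either way are shown at the end colour. The 2 columns of pool 3 are red for most rows, Hist1h1c and Hist1h2bc are palest with their reddest cell in CD90+ of pool 5, and the cells at the dark blue end are Hist2h2aa1 in CD90+ of pool 5 and Hist1h2ap in CD90- of pool 2, both listed at 0.

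Many members share sequence with other genes, so the division of reads between copies bears on the values of single genes. A member's share of 31-letter words found in no other gene had a median of 96.3% for H1 but of 20.2% for H2A, 41.5% for H2B, 38.1% for H3 and 52.1% for H4. The median standard error of the log2 fold was 0.61 for the 19 tested members with 60% or more unique words. It was 0.66 for the 38 with fewer. Among members with at least 400 summed reads, 1 of 16 with 60% or more unique words had a library at 0, and 20 of 40 with fewer did. Beyond that minimum the number of reads was not held equal. Many of the genes with a zero were at 0 in the CD90+ library of pool 5. That library had the fewest total counts (11.7 M) and histone reads (3340), but not the fewest nuclear protein-coding counts. These were 4.57 M there and 3.71 M in the CD90- library of pool 4, which had 4219 histone reads. Hist1h3b, Hist1h2ah and Hist1h2bj, at 0 in the former, were at 2.46, 2.14 and 9.51 CPM in the latter. Hist1h2ao was at 0 in both. How far depth gave the zeros in the CD90+ library of pool 5 was not tested. Hist1h2ap and Hist1h2ao, H2A genes of the Hist1 cluster, share 93.4% and 93.8% of their words. Hist1h2ap was at 29.3, 0, 59.99, 22.6 and 18.1 CPM in CD90- while Hist1h2ao was at 0, 19.7, 0, 0 and 0. In CD90+ Hist1h2ap was at 12.9, 12.3, 33.7, 24.9 and 7.27 CPM, and Hist1h2ao at 12.0 in pool 1 and 0 elsewhere. The estimated counts were therefore divided differently between these genes from library to library, and a fold for either alone is uncertain (Hist1h2ap log2 fold 0.06, SE 1.18, edgeR adjusted p = 0.982). Their sum was 29.3, 19.7, 59.99, 22.6 and 18.1 CPM in CD90- and 24.8, 12.3, 33.7, 24.9 and 7.27 CPM in CD90+, with no library at 0 and the maximum in pool 3 of each fraction.

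Hist2h2aa1 and Hist2h2aa2, H2A genes of the Hist2 cluster, gave a second case. Every 31-letter word of Hist2h2aa2 occurs in another gene, and 89.6% of the words of Hist2h2aa1 occur in Hist2h2aa2. Hist2h2aa1 was at 30.5, 24.4, 44.8, 15.7 and 19.0 CPM in CD90- and at 31.8, 15.2, 40.8, 28.5 and 0 CPM in CD90+. Hist2h2aa2 held 6.73 CPM in CD90- pool 4, 4.63 in CD90+ pool 2 and 1.67 in CD90+ pool 5, and 0 in the others. Their sum in the CD90+ library of pool 5 was 1.67 CPM and lay between 18.99 and 44.8 CPM in the 9 others, so that library stayed low after the copies were added. The fold of Hist2h2aa1, 0.63 with an SE of 0.93, had an edgeR adjusted p of 0.732.

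**Figure D4:**
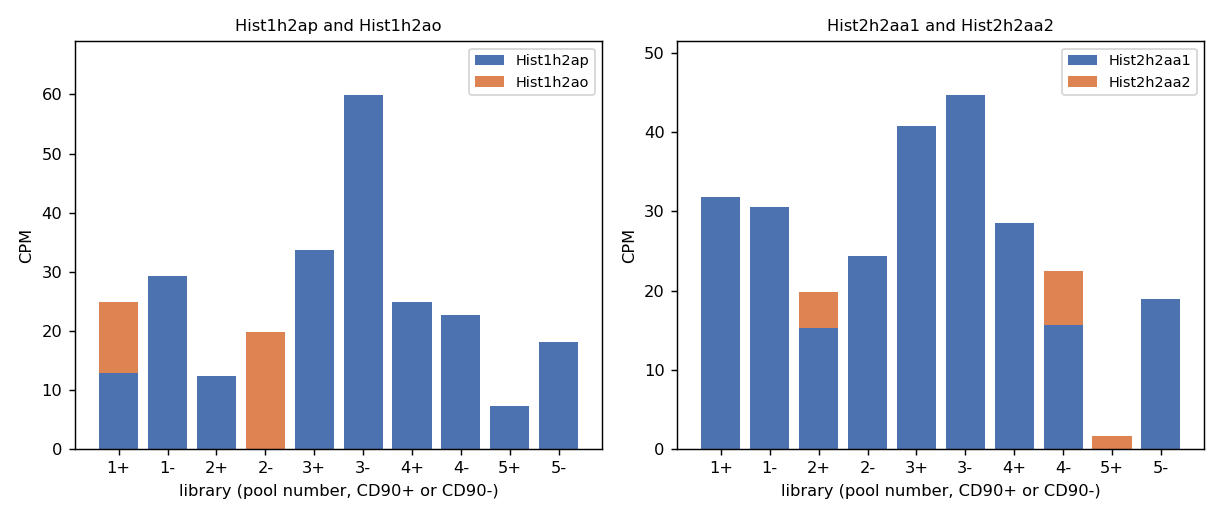
CPM (y axis, from 0) of a pair of near-identical H2A genes in each panel, stacked, in the 10 libraries (x axis: pool number, then + for CD90+ or - for CD90-; 1 library per bar, so no error bar). Hist1h2ao takes the whole height in CD90- of pool 2 and shares it in CD90+ of pool 1, and the Hist2h2aa1 and Hist2h2aa2 stack falls to 1.67 CPM in CD90+ of pool 5.

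Genes that act with these histones were also read for calls. Slbp, which binds the stem-loop, was at 26.1 ± 5.12 CPM in CD90- and 21.4 ± 6.22 in CD90+ (SD, n = 5; log2 fold 0.31, SE 0.25, edgeR adjusted p = 0.500). Npat, the coactivator of histone gene transcription, had a log2 fold of 0.30 and an adjusted p of 0.552. Of 18 tested genes of histone mRNA transcription and 3′ end processing 0 were called in either direction (median log2 fold 0.20), and of 18 histone chaperones also 0 (median -0.08). None of 11 variant histone genes, which are also expressed outside S phase, was called (median -0.19). Their summed level was highest in pool 3 of each fraction too but varied less, from 337 to 434 CPM in CD90- and from 410.1 to 464 in CD90+. These lists stand beside 12.9% of all genes called.

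Cell cycle genes had the same highest pool as the histones. Among 44 S phase genes 3 were higher in CD90- and 0 lower, where 5.83% of all genes tested were higher. They were Mcm6 (log2 fold 0.67, SE 0.19, edgeR adjusted p = 0.0431) and Mcm7 (0.78, SE 0.21, 0.0378), subunits of the replicative helicase, and Pola2 (1.12, SE 0.28, 0.0260), a subunit of DNA polymerase alpha, each higher in 5 of 5 pools. Among 23 mitosis genes Kif23, a kinesin of the midzone, was higher (1.16, SE 0.21, edgeR adjusted p = 0.00767) and 0 were lower. The S phase sum was 564, 417, 806, 525 and 501 CPM in CD90- and 462, 433, 749.5, 588 and 348 CPM in CD90+. The mitosis sum was 540.0, 326, 882, 505 and 537 CPM in CD90- and 516, 345, 757, 549.9 and 336 CPM in CD90+. Pool 3 was highest for both sums in both fractions, as it was for the histone sum, and the libraries share their depth and scaling factors. The list drawn up as RNAs without a poly(A) tail other than histone mRNA, which includes Malat1 and Neat1, did not share this order as a sum. The sum of its 7 matched RNAs was lowest in pool 3 of each fraction, at 14795 CPM in CD90- and 12348 in CD90+. Abundant RNAs can carry such a sum, so it does not give the order of each RNA.

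**Figure D5:**
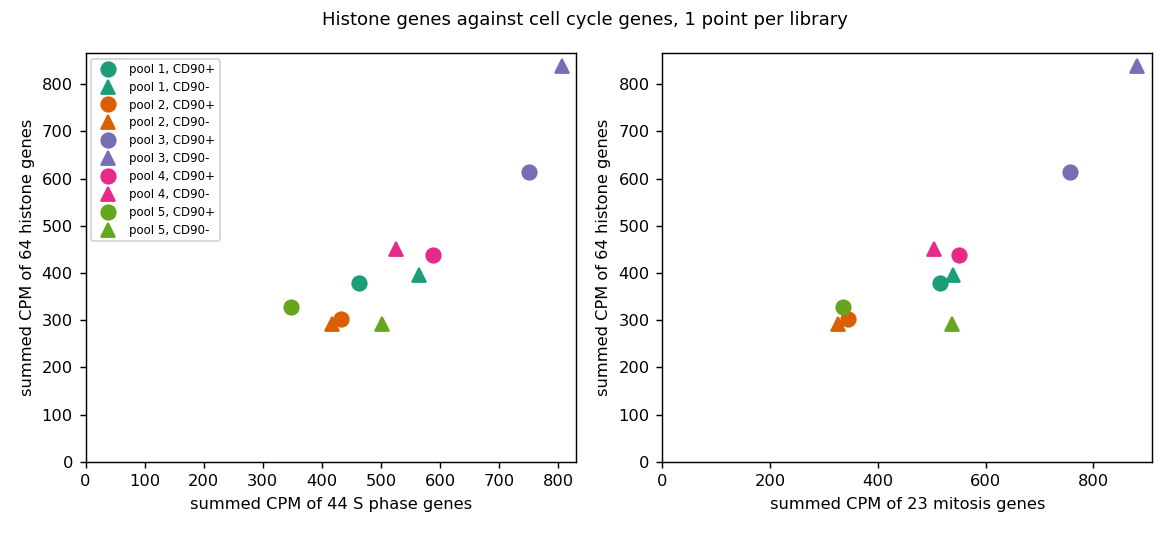
Summed CPM of the 64 histone genes (y axis) against summed CPM of 44 S phase genes (left) and 23 mitosis genes (right), 1 point per library, all axes from 0; colours are pools, triangles CD90- and circles CD90+. Both pool 3 libraries lie apart at the upper right, at 614 and 838 CPM of histone genes, and the other 8 lie between 291 and 451.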

How the data were processed

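RNA-seq of 10 libraries was analysed. The authors deposited an expected count per transcript from Salmon 1.9.0 with the builds GRCm39 and mm39, per the submitters' processing notes, together with TPM values and effective lengths. The sources used here do not name the annotation release or the strand setting. Of 144584 transcripts 133666 (92.4%) matched GENCODE M21 names without version, and their counts were summed to 48471 genes and rounded. The GENCODE annotation is of GRCm38, so it gave names, biotypes, chromosomes and sequences only. The deposited TPM values were used for levels per length alone, and effective lengths for an alternative fit. Totals of 11.7 to 47.7 M counts without molecular identifiers limit precision, since PCR copies are not independent molecules.

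Libraries were grouped by the CD90 label. In R 4.3.3, edgeR 4.0.16 (TMM, robust quasi-likelihood fit, low counts filtered by filterByExpr with the group) tested CD90- against CD90+ with the pool as a block, with Benjamini-Hochberg adjustment over all 15378 genes and a threshold of 0.05. Shared animal numbers give the pairing. Deviations of same-pool libraries correlated at 0.0044 to 0.461. DESeq2 1.42.0, limma-voom 3.58.1 and the settings named under the dependence on processing were alternatives, and the fit was tested on simulated data. RIN (3.1 to 8.7) and input (0.1 to 1.2 ng) are labelled as ranges over all libraries.

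The members and lists were chosen with earlier results of these data known. Named members were the 12 with the highest mean CPM, any with an adjusted p under 0.05 and the 2 with the smallest p per class. Other genes named were those of the related lists with an adjusted p under 0.05, at most 4 per list, Slbp and Thy1. Npat was named after its values were seen. Also named so were members at the threshold and the copies that share reads. Lists covered variant histones, 3′ end processing, chaperones, S phase, mitosis, RNAs without a poly(A) tail and cell markers. Promoters were matched by Entrez gene number to RefSeq on GRCm38.p6. Of the lists, 1 of 19 processing genes and 3 of 10 tail-less RNAs were not matched by name.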

Additional observations from a re-analysis of the deposited data

Results flagged for a closer look

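Of 48 groups of 5 libraries examined for a library apart from the rest, 4 had one, and chance alone gives about 1 in 20. In each the gap to the nearest library, divided by the range of the group, was above 0.71, and in each the library was pool 3. Summed H2A in CD90- was 277 CPM in pool 3 beside 82.6 to 119 in the others. Summed H3 in CD90- was 139.9 CPM beside 29.9 to 58.1. Hist1h2bc in CD90- was at 34.8 CPM beside 21.2 to 24.5. Hist1h1b in CD90+ was at 26.0 CPM beside 10.1 to 13.6.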

How the results depend on the processing

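The count of members higher in CD90- was 0 with no replicate block, with each pool left out (0 to 0), with RLE size factors, limma-voom, mitochondrially encoded genes left out, a transcript length offset, unmatched transcripts kept, the mitochondrial rRNA share as a covariate, pools 4 and 5 left out and a threshold of 0.01. It was 1, Hist1h1e, with DESeq2 (log2 fold 0.62, adjusted p = 0.0373), with no filter on low counts (0.60, edgeR adjusted p = 0.0412, background 10.5% of all genes) and over genes whose mean log2 CPM was 3 or more (0.61, edgeR adjusted p = 0.0452, 15 members tested, background 26.4%). The last setting tests fewer genes, and the cause of the other changes was not tested. Of all genes 1980 were called with the replicate block and 965 without it. The summed level's mean log2 difference was -0.90 with no TMM factor and 0.30 over nuclear protein-coding counts, scales that shift every gene by -0.97 and 0.24. The sum was then higher in CD90- in 1 and 5 of 5 pools, against 3 with TMM. It ran from -0.03 to 0.12 over pools left out.

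Of 280 folds of the 18 named members over 16 settings, 261 kept their direction and side of the threshold, 3 passed it and 16 turned, in 6 members; none of the turned folds was called. Hist1h2ap turned to -0.33, -0.23 and -0.35 without pools 1, 3 and 5, and to -0.48 without pools 4 and 5. Hist1h2ai turned to -0.0095 without pool 3, -0.087 without pool 4, -0.31 with the mitochondrial rRNA covariate and -0.21 without pools 4 and 5. Hist1h2ak turned to 0.16 and 0.41 without pools 4 and 5 in turn, 0.22 with limma-voom, 0.077 with the length offset and 0.88 without both pools. Hist2h2aa1 turned to -0.044 without pool 5. Over pools left out the highest or lowest fold was 0.80 for Hist1h2ap, 0.43 for Hist1h2ai, -0.61 for Hist1h2ak (all without pool 2) and 1.03 for Hist2h2aa1 (without pool 4). With the covariate Hist1h1d turned to -0.38 and Hist1h2bb to -0.79. In that fit 0 of all genes were called. The median standard error of the log2 fold was 0.26 for H1 and 0.54 to 0.78 for the other classes, and how far depth and shared sequence each set it was not tested.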

Other observations

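Per transcript length the order of the members changed. On the mean TPM scale Hist1h2ap (13.1 TPM), Hist2h2aa1 (10.8), Hist1h2ai (10.0) and Hist1h2ak (8.06) lay above Hist1h1c (6.90), which led by reads. Hist1h1e was at 4.01 TPM. The annotated transcript of Hist1h1d is 7425 bases, the longest of any member, which lowers its TPM to 0.594.

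The balance of linker histone mRNAs differed among libraries. The ratio of Hist1h1e to Hist1h1c reads was 0.896, 1.11, 0.835, 0.804 and 0.981 in CD90- pools 1 to 5 and 0.704, 0.382, 0.895, 0.762 and 0.160 in CD90+. It was lower in CD90+ in pools 1, 2, 4 and 5 and higher in pool 3, and no test was made of it. The lowest ratio, 0.160, came from the library with the fewest histone reads.

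The remaining marker lists were read for other cells, in summed CPM. Macrophage markers were at 17.2 to 37.6 CPM in CD90- and 8.94 to 17.0 in CD90+, with 0 of 6 tested genes called. Endothelium markers were at 146 in CD90- pool 2 and at 34.6 to 57.4 in the other CD90- libraries. In CD90+ they were at 25.6 to 36.2, with 2 of 5 genes higher in CD90-. Mesothelium markers were at 123 to 201 in CD90- against 72.4 to 204 in CD90+, with 1 of 3 higher. Pericyte markers were at 115 in CD90- pool 2 and at 7.02 to 28.5 in the other CD90- libraries. In CD90+ they were at 45.1 to 77.05, with 0 of 5 called. T and NK cell, B cell, neutrophil, acinar and erythrocyte markers stayed at or below 12.7 CPM in every library, with 0 called among the 1 tested gene of each list.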
